A study of Homo sapiens with 10 samples.

Results

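Complement is a set of plasma and membrane proteins that marks and lyses foreign or damaged cells, and 9 of its genes were followed here, of 20263 genes in the deposited table. They are CD55, CD46, CD59, C1S, C1R, C3, CFB, CFI and SERPING1, and their Ensembl identifiers were matched to symbols. The genes were selected on their measured LY and DMSO levels, with results of this contrast known, so their differences are given as descriptions, without p-values. The cells were PANC-1, an established human line derived from a carcinoma of the pancreatic duct. Of 10 libraries, 5 came from cells given 20 µM LY (lycorine, a plant alkaloid known to block protein synthesis) for 24 h and 5 from cells given DMSO, the solvent. The control columns carry the name NC, which stands in no sample title, and were taken as the DMSO group because no other group exists. The series text counts 4 samples per group and names Trizol, whereas the labels list 5 and an RNeasy kit, and all 10 columns were used. It is not stated that replicate libraries stem from separate cultures, so their spread may be technical.

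In the classical pathway, C1q bound to a target activates the proteases C1r and C1s, which go on to cleave C4 and C2. The alternative pathway works through factor B (CFB) and factor D (CFD), and all routes meet at the cleavage of C3. Host cells hold complement off with membrane proteins: CD55 speeds the decay of the enzymes that cleave C3, CD46 serves factor I in breaking down C3b and C4b, and CD59 stops assembly of the membrane attack complex. Factor I (CFI) is a soluble protease, and SERPING1 encodes the C1 inhibitor, which inactivates C1r and C1s. Most soluble components are made in the liver, while many epithelial and tumour cells carry the membrane regulators.

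Of the 9 genes, 6 have start-site windows in the RefSeq promoter table (GRCh38.p14), and C1S, C3 and SERPING1 do not. Stretches of 30 bases are shown for the gene that was far higher in LY (CD55), for its neighbour in the same gene cluster (CD46), and for C1R and CFB, whose windows hold matches of inflammatory motifs. The top 3 lines are the bases directly before the RefSeq start. Capitals mark the TATA box letters TATAAA, the STAT motif GAS (TTCNNNGAA) or the interferon response element ISRE (GAAANNGAAA, here on the reverse strand). Positions are, in order, chr1:207321648-207321677, chr1:207752008-207752037 and chr6:31946065-31946094 on the plus strand, chr12:7091960-7091989 on the minus strand, and chr6:31945993-31946022 and chr6:31945945-31945974 on the plus strand.

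CD55 before start: tttaactggtattgcggagccacgaggctt

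CD46 before start: attggccccagccgccctggtgactcgacg

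CFB before start: TATAAAaggctgggggctggtggggagcag

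C1R GAS: gccagtcctaTTCCTGGAAggggaggggag

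CFB GAS: cgcttggatgTTCCGGGAAagtgatgtggg

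CFB ISRE: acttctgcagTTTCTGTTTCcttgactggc

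The windows run from 250 bases before to 50 bases after the start and were searched on both strands for these 3 motifs, for NF-kB and the CArG box (by name), for C/EBP (TTNNGNAA) and for AP-1 (TGANTCA). None of the 7 motifs matched the CD55 window or either of the 2 CD46 windows. The CFB window held GAS, ISRE, NF-kB and TATAAA, 1 position each. One of the 2 C1R windows held GAS 86 bases before its start. Of 4 CD59 windows, the 2 at the upstream starts share 1 GAS position, and 1 at a downstream start held AP-1 at 3 positions. C/EBP matched windows of C1R, CD59 and CFI, and no 2 matches of different motifs in a window overlapped. Among 34796 windows of the same length, 7.67% hold GAS, 3.57% ISRE, 11.3% NF-kB, 36.9% C/EBP, 7.73% AP-1, 1.3% the CArG box and 11.6% TATAAA. A match describes letters and is not evidence of a binding site.

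Values are TPM, a transcript abundance scaled for transcript length and library total, so levels of different genes can be set side by side. Log2 differences are LY less DMSO on the log2(TPM + 1) scale with the SE of a limma fit over all tested genes, and this scale understates the change of genes near or below 1 TPM. The depth of the libraries is unknown. Control library NC-2 stood apart, with 37.5% of its TPM in the 13 mitochondrially encoded genes, against 12.2% to 14.1% in the other 4 controls and 6.43% to 14.9% in LY. Epithelial identity was checked on 7 markers, whose summed level was 2355 to 2759 TPM in LY and 2030 to 2720 TPM in DMSO. KRT8, KRT18, KRT19 and SOX9 were present in every library, whereas KRT7 and CDH1 stayed under 1 TPM, so not all defining ductal markers were seen. KRT19 held 21.0 ± 3.47 TPM in LY and 148 ± 16.6 TPM in DMSO, and the summed level was carried by KRT8 and KRT18.

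CD55, the decay-accelerating factor (ENSG00000196352, chromosome 1, 207321376 to 207386804, plus strand, GRCh38), held 103, 78.7, 64.9, 60.9 and 55.3 TPM in LY-1 to LY-5. In NC-1 to NC-5 it held 6.36, 7.61, 6.69, 5.15 and 4.36 TPM. Each LY library lay above each control, and the lowest LY value was 55.3 TPM against a highest control value of 7.61 TPM. Means were 72.5 ± 19.0 TPM in LY and 6.03 ± 1.29 TPM in DMSO (SD, n = 5 each), a 12-fold ratio, and the log2 difference was 3.37 ± 0.18. By this difference CD55 ranked 9 among the increases of 11663 tested genes. Without NC-2 the log2 difference was 3.45.

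CD46, the membrane cofactor protein (ENSG00000117335, chromosome 1, 207752057 to 207795513, plus strand), lies 365 kb from CD55 and differed the other way. It held 25.8, 22.4, 37.9, 26.8 and 20.8 TPM in LY-1 to LY-5 and 37.7, 31.5, 36.7, 47.0 and 44.6 TPM in NC-1 to NC-5. The groups overlapped through LY-3 alone, since the other 4 LY libraries lay below all controls. Means were 26.8 ± 6.71 TPM in LY and 39.5 ± 6.27 TPM in DMSO, and the log2 difference was -0.56 ± 0.16 (-0.64 without NC-2).

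CD59, also called protectin (ENSG00000085063, chromosome 11, 33703010 to 33736491, minus strand), held 54.9, 54.1, 69.5, 37.3 and 70.5 TPM in LY-1 to LY-5. Control values were 76.2, 40.1, 76.8, 76.8 and 63.5 TPM, with NC-2 the low one. The groups overlapped widely. The log2 difference was -0.21 ± 0.21, moving to -0.38 without NC-2 and to -0.070 without LY-4, the low LY library. With upper-quartile scaling it was -0.45.

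CD55 therefore took a different place among the 3 membrane regulators in the 2 groups. Of their summed TPM it made up 37.7% to 56.1% in LY and 3.87% to 9.61% in DMSO, while CD59 made up 29.8% to 48.1% in LY and 50.6% to 63.9% in DMSO. The sum of the 3 was 157 ± 22.7 TPM in LY and 112 ± 19.3 TPM in DMSO, and its ranges met, with 125 TPM in LY-4 and 129 TPM in NC-4. CD46 and CD59 together gave 84.0 ± 16.3 TPM in LY and 106 ± 20.1 TPM in DMSO, also with overlap.

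**Figure D1:**
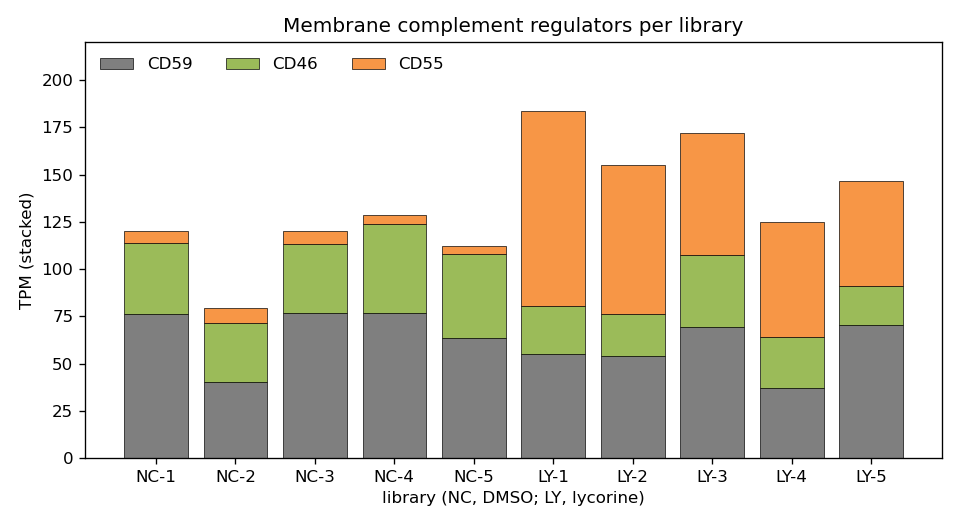
TPM of CD59, CD46 and CD55 stacked for each library, with the 5 DMSO libraries (NC) on the left and the 5 LY libraries on the right. The CD55 segment is 4.36 to 7.61 TPM in the controls and 55.3 to 103 TPM in LY, whereas the CD59 and CD46 segments overlap between groups.

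C1S, the protease that cleaves C4 and C2 (ENSG00000182326, chromosome 12, 6988259 to 7071032, plus strand), was low in controls and lower in LY. It held 0.28, 0.64, 0.654, 0.522 and 0.441 TPM in LY-1 to LY-5 against 3.99, 3.02, 6.31, 4.56 and 4.48 TPM in NC-1 to NC-5. All LY values were under 1 TPM and all controls at 3.02 TPM or more. The ratio of means was 8.81, DMSO over LY, and the log2 difference was -1.84 ± 0.15 (-1.94 without NC-2). With a pseudocount of 0.1 in place of 1 it was -2.92. C1S reached 1 TPM in the 5 controls and in no LY library, so it entered the tested genes through the controls alone.

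C1R, which activates C1s (ENSG00000159403, chromosome 12, 7080199 to 7092607, minus strand), lies 9.17 kb from C1S on the opposite strand, with their 3′ ends facing. Its values were 0.834, 0.777, 0.644, 1.14 and 1.18 TPM in LY-1 to LY-5 and 5.10, 2.47, 6.59, 6.20 and 5.50 TPM in NC-1 to NC-5. NC-2 was the low control, and still lay above every LY library. The ratio of means was 5.65, DMSO over LY, and the log2 difference was -1.65 ± 0.20 (-1.84 without NC-2). C1R reached 1 TPM in 2 LY libraries, so its controls were needed for it to be tested. C1R and C1S were of like abundance in DMSO, with a C1R to C1S ratio of 0.819 to 1.36, and this ratio ran from 0.984 to 2.98 in LY, where both genes were near the floor.

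C1RL, a C1r-like protease, shares the interval 7089587 to 7092607 with C1R on the same strand, and how the authors split reads there is not given in the sources used here. It held 18.5 ± 2.72 TPM in LY and 26.7 ± 10 TPM in DMSO, a log2 difference of -0.44 ± 0.22 that did not pass (limma, adjusted p = 0.0928). The gene model of C1S in GENCODE reaches back over EMG1 and LPCAT3. EMG1, on the same strand, was higher in LY (log2 difference 1.01 ± 0.19) and LPCAT3, on the opposite strand, lower (-0.51 ± 0.10).

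C3, the component on which all pathways act (ENSG00000125730, chromosome 19, 6677704 to 6730562, minus strand), held 0.129, 0.631, 0.649, 0.536 and 0.695 TPM in LY-1 to LY-5. In NC-1 to NC-5 it held 0.259, 0.204, 1.26, 0.658 and 0.94 TPM. The ranges overlapped, only NC-3 exceeded 1 TPM, and C3 was not tested. Its log2 difference of -0.096 took both signs across alternative settings, from -0.23 to 0.079.

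CFB, the protease precursor of the alternative pathway (ENSG00000243649, chromosome 6, 31945650 to 31952084, plus strand), varied more among LY libraries than any other of the 9 genes detected in both groups. It was listed at 0 in LY-1 and held 0.245, 0.509, 0.948 and 1.87 TPM in LY-2 to LY-5, against 0.719, 0.409, 2.23, 2.86 and 2.11 TPM in NC-1 to NC-5. The groups overlapped, the coefficient of variation was 103% in LY and 63.1% in DMSO, and CFB was not tested. Its log2 difference was -0.63, -0.84 without NC-2 and -1.44 with a pseudocount of 0.1. A read-through transcript gene of C2 and CFB covers nearly the same interval, and how reads were split between them is not given in the sources used here.

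CFI (ENSG00000205403, chromosome 4, 109740694 to 109802179, minus strand) was listed at 0 in all 10 libraries. SERPING1 (ENSG00000149131, chromosome 11, 57597387 to 57614853, plus strand) was listed at 0 in 9 libraries and at 0.0667 TPM in LY-5. No statement on either gene's response can be made, and no limit of detection can be given without the depth. The 10 housekeeping genes examined were above 0 in every library.

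**Figure D2:**
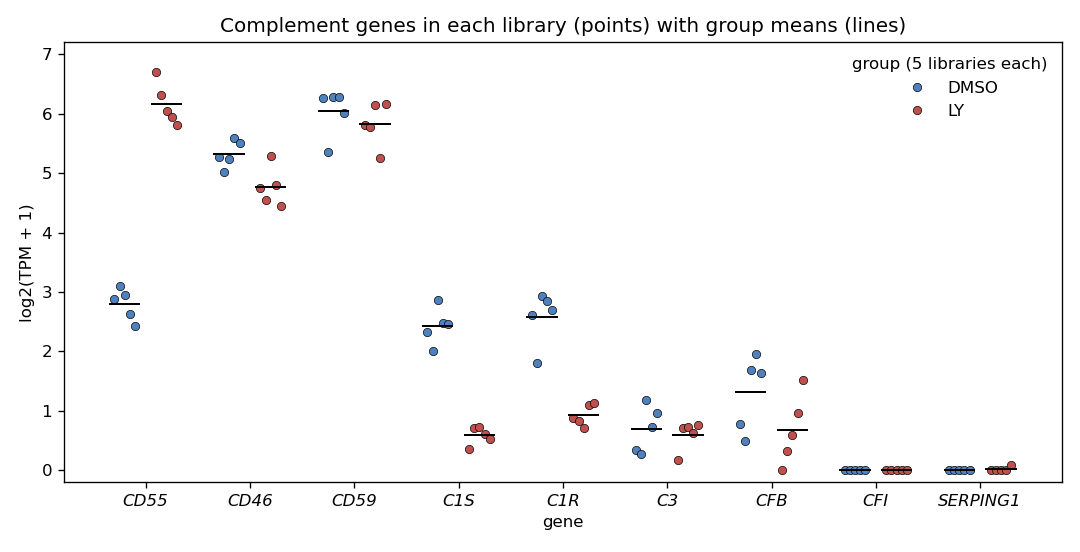
Level of each of the 9 genes as log2(TPM + 1), with 1 point per library, DMSO in blue, LY in red and the group mean as a line. CD55 stands above the controls in all LY libraries, C1S and C1R below them, CD46, CD59, C3 and CFB overlap, and CFI and SERPING1 lie at or near 0.

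In DMSO the order by mean TPM was CD59 (66.7 ± 15.9), CD46 (39.5 ± 6.27), CD55 (6.03 ± 1.29), C1R (5.17 ± 1.62), C1S (4.47 ± 1.2), CFB (1.67 ± 1.05) and C3 (0.664 ± 0.449). CD59 exceeded CD46 within each of the 5 controls, although their ranges met through NC-2. The values of CD55, C1R and C1S overlapped one another, as did those of CFB and C3. In LY the order was CD55 (72.5 ± 19.0), CD59 (57.2 ± 13.6), CD46 (26.8 ± 6.71), C1R (0.916 ± 0.236), CFB (0.715 ± 0.737), C3 (0.528 ± 0.231) and C1S (0.507 ± 0.154). CD55 exceeded CD59 in 3 of 5 LY libraries, and the last 4 genes overlapped.

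Testing required 5 or more libraries to reach 1 TPM, which 5 of the 9 genes did (CD55, CD46, CD59, C1S and C1R). In the limma fit 1 of these 5 was called higher and 3 lower at a Benjamini-Hochberg adjusted p under 0.05, where 39.8% of all tested genes were called higher and 24.9% lower (64.6% in all). Groups did not overlap for 1 gene with LY above and for 2 with LY below, against 32.7% and 16.7% of all tested genes (49.4% in all). The choice of genes used this contrast, so nothing is read from these counts. Over all tested genes the split was 4639 higher and 2899 lower as deposited, 3973 and 3792 after median-ratio scaling, 4056 and 3696 after quantile normalization, and 3442 and 4266 after upper-quartile scaling. The median log2 difference of all tested genes was 0.17 (0.031, 0.050 and -0.062 under those 3 scalings), and relative to it CD55 stood at 3.20, CD46 at -0.73, CD59 at -0.38, C1R at -1.81 and C1S at -2.01.

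The rest of the complement system was followed on a list of 51 further genes, of which 26 were listed at 0 in every library and 39 never reached 1 TPM. Both C4 genes, C2, the receptors C3AR1 and C5AR1, and vitronectin (VTN) were among the detected genes that never did. C4A and C4B are near-identical copies, and reads may have been split between them. Of 10 tested genes 3 rose, 4 fell and 3 did not pass in the limma fit (70% called, beside 64.6% of all tested genes), and their median log2 difference was -0.29, beside 0.17 for all tested genes. With upper-quartile scaling 2 rose and 6 fell, beside 3442 and 4266 of all tested genes. Of these 10, ITGAM, COLEC11, MASP2, ITGB2 and C8G (not called) met the filter only with the help of the group where each is higher. The results of these genes and the counts that hold them are therefore no support. The list itself was chosen with earlier results of these data known, so its adjusted p-values are no independent support.

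CFD, the protease that cleaves factor B, fell from 28.9 ± 7.76 TPM in DMSO to 8.96 ± 2.03 TPM in LY (log2 difference -1.56 ± 0.22, limma adjusted p = 5.38e-05). Its LY values ran from 6.35 to 11.3 TPM and its controls from 15.4 TPM in NC-2 to 34.8 TPM. MASP2, the protease of the lectin pathway that cleaves C4 and C2 as C1s does, held 3.97 ± 0.716 TPM in DMSO and 1.08 ± 0.196 TPM in LY (log2 difference -1.25 ± 0.12), with no overlap, and reached 1 TPM in 5 controls and 3 LY libraries. CLU, which encodes clusterin, an extracellular chaperone that also blocks the terminal complex, fell from 71.4 ± 13.6 to 34.8 ± 11.7 TPM (-1.07 ± 0.24, limma adjusted p = 0.00194), again with no overlap.

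ITGB2, the beta chain of the complement receptors for iC3b, held 2.69 ± 1.12 TPM in DMSO and 1.23 ± 0.384 TPM in LY (log2 difference -0.68 ± 0.23). The groups overlapped through NC-2, and ITGB2 reached 1 TPM in 4 controls and 3 LY libraries, so its controls were needed for it to be tested. Its call as lower in the limma fit was also lost without LY-3 (adjusted p = 0.0565), NC-1 (0.0519) or NC-3 (0.0538), and in an exact Wilcoxon test (0.134). Its alpha partner ITGAM held 0.566 ± 0.204 TPM in DMSO and 1.62 ± 0.297 TPM in LY (log2 difference 0.75 ± 0.12), and reached 1 TPM in 5 LY libraries and no control. COLEC11, a soluble lectin that starts the lectin pathway, held 0.694 ± 0.342 TPM in DMSO and 1.36 ± 0.286 TPM in LY (0.49 ± 0.15). It reached 1 TPM in 5 LY libraries and 1 control. The groups overlapped through that control, NC-3, at 1.145 TPM. Its call as higher was lost in an exact Wilcoxon test (adjusted p = 0.05235).

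C1QBP, a mainly mitochondrial protein that binds the globular heads of C1q, rose from 689 ± 99.3 to 916 ± 113 TPM (0.42 ± 0.13, limma adjusted p = 0.0137). With upper-quartile scaling it did not pass (0.17, adjusted p = 0.159). C5, the precursor of the terminal pathway, held 3.55 ± 0.698 TPM in LY and 4 ± 0.385 TPM in DMSO (-0.14 ± 0.12, limma adjusted p = 0.314).

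**Figure D3:**
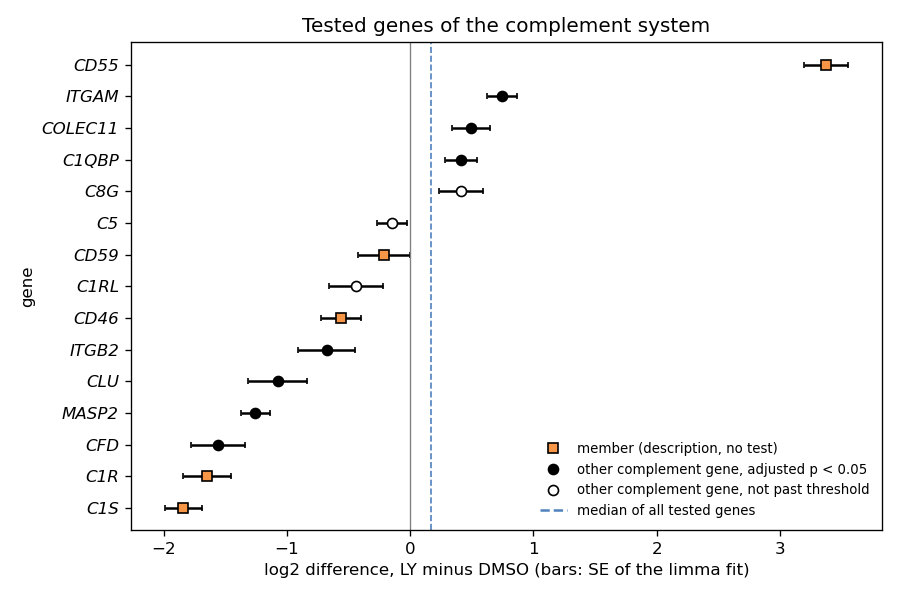
Log2 difference, LY less DMSO, with the SE of the limma fit for the 15 tested complement genes, squares for those of the 9 and circles for the further list (filled where the adjusted p was under 0.05). The dashed line is the median of all tested genes at 0.17, and CD55 at 3.37 lies far to the right of ITGAM at 0.75.

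Markers of other cells that make complement were read beside these values. Of 8 hepatocyte markers all were under 1 TPM in LY and 7 in DMSO, with SERPINA1 reaching 1.31 TPM and ALB at most 0.0526 TPM, and the list summed to 0.318 to 0.67 TPM in LY and 0.872 to 1.63 TPM in DMSO. Of 8 leukocyte and macrophage markers 7 were under 1 TPM in both groups, with CD163, AIF1, LYZ and CD3E at 0. The list summed to 131 to 232 TPM in LY and 35.1 to 47.7 TPM in DMSO, nearly all of it CD68, a lysosomal protein of macrophages that other cells also make. Of 6 fibroblast markers the sum was 27.7 to 37.7 TPM in LY and 69.0 to 115 TPM in DMSO, nearly all COL1A2, with DCN and LUM at 0. Of 4 endothelial markers PECAM1 and KDR were at 0 and CDH5 held 2.68 to 3.22 TPM in LY and 0.0988 to 0.535 TPM in DMSO. All 4 acinar markers were at 0. All 10 libraries came from the PANC-1 line, so these levels do not count cells of other types. Fewer PANC-1 cells with a transcript and less of it per cell cannot be told apart in bulk RNA.

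CD55 and CD59 reach the surface on a glycosylphosphatidylinositol (GPI) anchor, a glycolipid built in the endoplasmic reticulum, attached to the protein and then remodelled, whereas CD46 spans the membrane. Of 32 GPI anchor genes 30 were tested. In the limma fit 9 rose, 10 fell and 11 did not pass (63.3% called, beside 64.6% of all tested genes). Their median log2 difference was -0.12, beside 0.17 for all tested genes. This list too was chosen with earlier results of these data known, so its adjusted p-values are no independent support. The split depended on scaling, as did that of all tested genes. Median-ratio scaling gave 5 that rose and 13 that fell, beside 3973 and 3792 of all tested genes. Quantile normalization gave 6 and 13, beside 4056 and 3696, and upper-quartile scaling 3 and 16, beside 3442 and 4266.

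DPM2, a subunit of the enzyme that supplies mannose, rose from 32.8 ± 5.52 to 57.9 ± 6.20 TPM (0.81 ± 0.13, limma adjusted p = 0.00019), and PIGW, which acylates the inositol of the precursor, from 22.4 ± 4.75 to 38.5 ± 3.78 TPM (0.78 ± 0.15, limma adjusted p = 0.000635). Another subunit of the mannose enzyme, DPM3, fell from 61.7 ± 21.2 to 26.6 ± 2.84 TPM (-1.09 ± 0.26, named after its value was seen). The groups of DPM3 overlapped through NC-2, at 24.98 TPM, within the LY range of 23.35 to 30.18 TPM. DPM1 rose by 0.28 ± 0.11 on the log2 scale. MPPE1, a phosphoesterase that trims the anchor after attachment, fell from 10.6 ± 3.30 to 2.61 ± 1.01 TPM (-1.67 ± 0.27, limma adjusted p = 0.000157). PGAP1, which removes that acyl chain again, fell from 14.6 ± 5.08 to 5.03 ± 2.50 TPM (-1.43 ± 0.29, limma adjusted p = 0.000973).

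Other genes of remodelling after attachment, grouped after the values were seen so that nothing is read from the grouping, were lower in LY too. These were PGAP3 (-1.39 ± 0.28), PGAP2 (-0.70 ± 0.14) and PGAP6 (-0.56 ± 0.16). PGAP4 was not tested, at 0.425 TPM in LY and 0.471 TPM in DMSO.

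**Figure D4:**
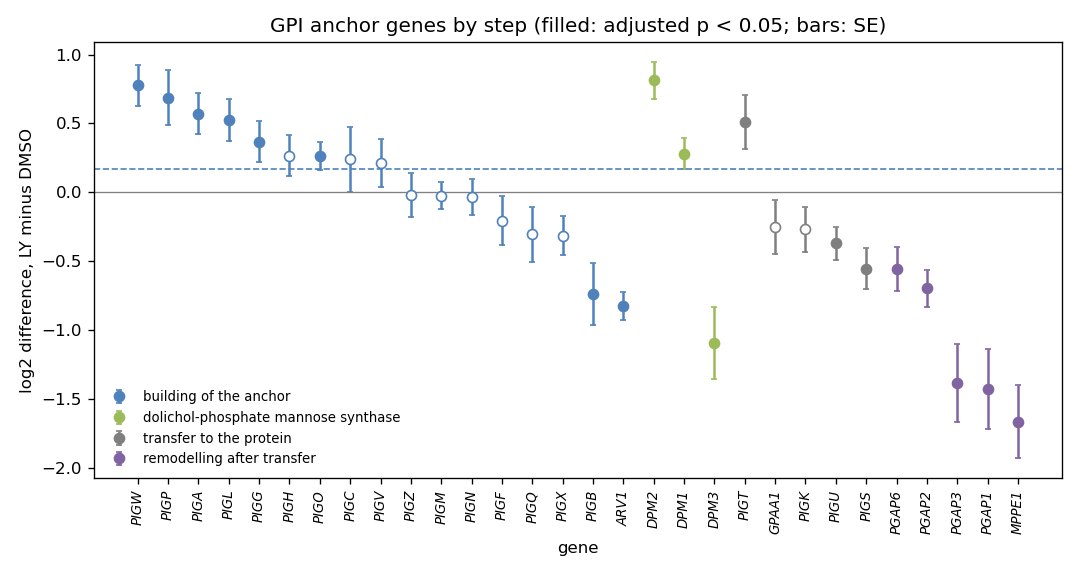
Log2 difference, LY less DMSO, with the SE of the limma fit for the 30 tested GPI anchor genes, coloured by step and filled where the adjusted p was under 0.05. The 5 remodelling genes on the right lie between -1.67 and -0.56, and the genes that build the anchor lie on both sides of 0. The steps were grouped after the values were seen, so nothing is read from the grouping.

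Genomic neighbours were read beside the 9 genes. Of the 14 nearest tested genes that are not among the 9 and overlap none of them, 6 rose, 4 fell and 4 did not pass in the limma fit, beside 39.8% higher and 24.9% lower (64.6% in all) of all tested genes. Left out as overlapping were EMG1, LPCAT3 and C1RL, given above, and GPR108. GPR108 overlaps C3 and did not pass (-0.059 ± 0.14, limma adjusted p = 0.736). On the other side of CD55, 240 kb away, the nearest tested gene was PFKFB2, a regulator of glycolysis, at 5.19 ± 0.893 TPM in LY and 4.51 ± 1.07 TPM in DMSO (0.18 ± 0.16, limma adjusted p = 0.352). RBP5, a retinol-binding protein gene 31.1 kb from C1R, fell from 12.7 ± 3.53 to 6.55 ± 1.98 TPM (-0.85 ± 0.22, limma adjusted p = 0.00518), whereas PHB2, on the far side of C1S, held 568 ± 47.4 TPM in LY and 642 ± 51.7 TPM in DMSO (-0.18 ± 0.10, limma adjusted p = 0.141). FBXO3, a ubiquitin ligase adaptor 4.45 kb from CD59, fell from 13.1 ± 1.13 to 7.84 ± 0.693 TPM (-0.67 ± 0.10, limma adjusted p = 7.86e-05). On the other side of CD59, 346 kb away, HIPK3, a protein kinase gene, rose from 12.2 ± 0.938 to 20.8 ± 3.96 TPM (0.70 ± 0.14). Also higher in LY were GAR1 beside CFI (1.02 ± 0.13), TRIP10 beside C3 (0.78 ± 0.12), NELFE beside CFB (0.74 ± 0.19) and YPEL4 beside SERPING1 (0.50 ± 0.14). C1orf74, as far as 1984 kb beyond CD46, was higher as well (0.86 ± 0.14). UBE2L6 on the other side of SERPING1 (-2.14 ± 0.13) and ZBTB12 on that of CFB (-0.46 ± 0.15) were lower. CD70 beside C3 (0.46 ± 0.21) and PLA2G12A beside CFI (-0.091 ± 0.15) did not pass.

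Likeness of profile was measured as the root mean square difference over the 10 libraries of log2(TPM + 1) less its DMSO mean. Nearest to CD55 were NAV2 (0.35), RASSF1 (0.38) and IFRD1 (0.41), with mean levels of 63.0, 224 and 219 TPM in LY and 7.06, 20.0 and 27.2 TPM in DMSO. Nearest to C1S, which had the largest decrease of the 5 tested, were BTN3A1 (0.14), ELFN2 (0.14) and PIK3R2 (0.15). BTN3A1 and ELFN2 held 0.394 and 0.115 TPM in LY and 4.58 and 3.28 TPM in DMSO. PIK3R2 was more abundant, at 10.9 TPM in LY and 42.5 TPM in DMSO, so likeness on this scale does not mean a like ratio of TPM.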

How the data were processed

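RNA sequencing of 10 PANC-1 libraries was deposited by the authors as TPM per gene, 1 column per library. Columns sum to 999932 to 999967, and any scaling between libraries, the aligner, counter, annotation and depth are not given in these labels or file headers; GRCm38, mm10 and hg38 are listed per the submitters' processing notes, without roles. Symbols came from a gene name table (20148 of 20263 IDs) and GENCODE release 29 (76), positions from GENCODE on GRCh38, and start-site windows from RefSeq. LY columns match sample titles, and NC columns were assigned to DMSO as a group.

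The 11663 genes that reached 1 TPM in 5 or more libraries were fitted with limma 3.58.1 in R 4.3.3 on log2(TPM + 1), with the group as the only term and a mean-variance trend. Benjamini-Hochberg adjustment covered all of them, with a threshold of 0.05. The script was tested on simulated data. The 9 genes and the lists were chosen with earlier results of these data known. Named were the 9, all further complement genes called with a mean of at least 1 TPM plus the 2 most abundant not called, the 2 largest changes each way of the GPI list, nearest tested neighbours, and the 3 most alike genes of CD55 and C1S. Alternatives changed the pseudocount, the filter, the scaling, the moderation or the test, removed mitochondrial genes, or left out libraries.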

Additional observations from a re-analysis of the deposited data

Results flagged for a closer look

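The 42 named genes gave 84 groups of 5 libraries. CFI in both groups and SERPING1 in DMSO, at 0 throughout, could not be searched. In the others a library was sought whose gap to the nearest other exceeded 0.71 of the group's range. Chance passes this in about 1 of 20 groups, and 9 such groups were found. In 5 of them control NC-2, the library with 37.5% mitochondrial TPM, was low: CFD at 15.4 TPM (others 29.8 to 34.8), DPM2 at 23.2 TPM (others 34.1 to 37.1), MPPE1 at 4.86 TPM (others 10.6 to 12.9), PFKFB2 at 2.68 TPM (others 4.64 to 5.43) and TRIP10, a neighbour of C3, at 120.7 TPM (others 168 to 177). The part of the mitochondrial share in these values was not tested. In LY, C3 was low in LY-1 at 0.129 TPM (others 0.536 to 0.695), and C1QBP was high in LY-3 at 1111 TPM (others 834 to 909). SERPING1 was above 0 in LY-5 alone, at 0.0667 TPM, so its gap equals the range at any value and the chance rate does not apply to it. PGAP1 was high in control NC-4 at 23.5 TPM (others 11.0 to 13.3).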

How the results depend on the processing

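The sign of the log2 difference of CD55, CD46, CD59, C1S, C1R and CFB held in all 21 alternatives. CD55 ran from 3.14 to 3.56, CD46 from -0.80 to -0.48, CD59 from -0.46 to -0.070, C1S from -2.92 to -1.68, C1R from -2.33 to -1.48 and CFB from -1.44 to -0.46. The largest decreases of C1S, C1R and CFB came with a pseudocount of 0.1, and the smallest of CD59 without LY-4. The call of CD46 as lower was lost in the exact Wilcoxon test. CD59 was called lower with upper-quartile scaling, with quantile normalization, and without NC-2 with median-ratio scaling. At a minimum TPM of 5, C1S and C1R were not tested. Counts over all tested genes ranged from 3442 to 4871 higher and 2207 to 4266 lower; with upper-quartile scaling and with mitochondrial genes removed more genes were lower than higher. For the further complement genes, no filter gave 5 higher and 7 lower, and a minimum TPM of 5 gave 1 higher and 2 lower, with fewer genes tested. Leaving out 1 library gave 3 to 4 higher and 3 to 5 lower. C1RL passed, as lower in LY, without NC-2 (adjusted p = 0.00837) and under the scaling alternatives, and C5 with upper-quartile scaling (0.0407). For the GPI anchor genes 5 were higher with median-ratio scaling, with mitochondrial genes removed, by the exact Wilcoxon test and without NC-2 with median-ratio scaling, and 3 higher and 16 lower with upper-quartile scaling. Leaving out 1 library gave 5 to 7 higher, with 5 without LY-5 or NC-4, and 10 to 14 lower. No paired analysis was possible because the control columns are tied to no numbered sample. TPM keeps no read totals, so the precision of values under 1 TPM (C3, CFB, C1S in LY) is unknown.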
